A study of Mus musculus with 4 samples.

Results

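Of the 12885 SCL peaks mapped in FLK1+ mesoderm, 15 lay nearest to genes of the GFI1 and Ikaros families of zinc finger repressors. The 7 genes followed were Gfi1, Gfi1b and Ikzf1 to Ikzf5. A peak was credited to a gene when, among all protein-coding transcription start sites (TSSs) of the GENCODE vM1 annotation on mm9, the one closest to the peak summit was a TSS of that gene. By this rule 3 of the 7 genes had a peak, with 2 at Gfi1b, 5 at Ikzf1 and 8 at Ikzf2. Peaks credited in the same way were found for 28.9% of the 22380 protein-coding genes. The annotation does not type Gfi1 as protein-coding, so the rule could credit it no peak and the count that can be set beside that share is 3 of 6.

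SCL ChIP-seq was performed on wild-type ES cells (strain label C57Bl/6 X Sv129; the J1 line per the study's methods) differentiated into embryoid bodies, from which FLK1+ cells were collected on magnetic columns at day 3.5. There were 2 libraries precipitated with an in-house rabbit antiserum to SCL and 2 input libraries with no antibody, from 2 differentiations. The deposited peak list merges the libraries, so replicate error cannot be given for any value. The intervals given are 95% Poisson intervals of the ChIP fragments at a summit. They cover the counting error of those fragments only. The background is taken as exact, so the full counting error of a fold is larger. The deposited list holds more peaks than the number of SCL-bound loci given in the study's text, and shares over all peaks refer to this list. The list holds no expression values, so the FLK1+ label could not be checked against marker genes, and whether any of these genes is transcribed in the cells is not shown by these data. The study names Gfi1, Gfi1b, Ikzf1 and Ikzf2 as direct targets of SCL. By this it means bound genes whose RNA differed between its wild-type and Scl-null FLK1+ cells.

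GFI1 and GFI1B are close relatives that share a short N-terminal SNAG domain, through which they recruit the histone demethylase LSD1 with CoREST. They act in blood stem cells, in the endothelial to blood transition of the embryo and, for GFI1B, in red cells and megakaryocytes. Ikaros (Ikzf1), Helios (Ikzf2), Aiolos (Ikzf3), Eos (Ikzf4) and Pegasus (Ikzf5) bind DNA through N-terminal zinc fingers and pair with one another through C-terminal ones. Ikaros works with the NuRD, SIN3 and CtBP corepressors and is best known from lymphoid cells. SCL itself binds DNA with an E protein at E-boxes (CANNTG), and through LMO2 and LDB1 it is joined to GATA factors, so that its peaks often hold GATA motifs.

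The sequences at the summits are given first, because the strongest peaks of the 3 genes differed in the motifs they held. Each is the 101 bp centred on a summit, on the plus strand of mm9. Capitals mark GATA motifs (GATA preceded by A or T and followed by A or G, on either strand), E-boxes (CANNTG), and the CTG and GATA of pairs in which 7 to 10 bases separate them. Peaks are named by the distance in kb of the summit from the nearest TSS of the gene, plus in the direction of transcription. The first group holds 3 neighbouring peaks downstream of Gfi1b and the strongest peak near Gfi1, and only the first of them was credited to one of the 7 genes by the rule.
Gfi1b +13.0 kb, chr2:28457837-28457937: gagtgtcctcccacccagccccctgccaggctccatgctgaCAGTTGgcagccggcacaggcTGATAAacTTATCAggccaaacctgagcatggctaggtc
Gfi1b +16.0 kb, chr2:28454890-28454990: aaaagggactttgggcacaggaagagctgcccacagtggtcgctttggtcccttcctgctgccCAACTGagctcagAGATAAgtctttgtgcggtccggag
Gfi1b +17.1 kb, chr2:28453757-28453857: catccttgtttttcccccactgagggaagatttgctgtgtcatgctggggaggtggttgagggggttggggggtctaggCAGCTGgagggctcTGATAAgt
Gfi1 -33.3 kb, chr5:108188307-108188407: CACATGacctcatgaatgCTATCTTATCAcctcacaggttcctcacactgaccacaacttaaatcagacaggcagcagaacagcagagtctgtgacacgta

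The next group holds the pair of strong peaks in Ikzf1 and the weaker peak beside them that carries both a 7-base and a 10-base spacing of CTG and GATA.
Ikzf1 +26.9 kb, chr11:11627075-11627175: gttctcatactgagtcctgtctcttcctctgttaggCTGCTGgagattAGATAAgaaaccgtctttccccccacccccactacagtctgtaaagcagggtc
Ikzf1 +29.2 kb, chr11:11629368-11629468: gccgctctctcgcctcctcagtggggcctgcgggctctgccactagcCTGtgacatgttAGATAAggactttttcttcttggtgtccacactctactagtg
Ikzf1 +35.1 kb, chr11:11635316-11635416: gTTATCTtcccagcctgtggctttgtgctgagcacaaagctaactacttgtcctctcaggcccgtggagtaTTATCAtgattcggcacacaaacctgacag

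The last group holds the 3 Ikzf2 peaks with the highest fold, in the order of their distance from the gene's start.
Ikzf2 +126.1 kb, chr1:69606425-69606525: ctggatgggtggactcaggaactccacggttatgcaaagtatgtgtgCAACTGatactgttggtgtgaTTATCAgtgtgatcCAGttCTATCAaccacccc
Ikzf2 +172.2 kb, chr1:69560334-69560434: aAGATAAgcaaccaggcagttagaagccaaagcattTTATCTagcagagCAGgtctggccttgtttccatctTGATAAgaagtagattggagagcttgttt
Ikzf2 +189.8 kb, chr1:69542727-69542827: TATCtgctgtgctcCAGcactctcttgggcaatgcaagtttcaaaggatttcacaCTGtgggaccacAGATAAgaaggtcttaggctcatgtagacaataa

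Gfi1b had the strongest of the 15 peaks, although that peak goes to the neighbouring gene Gtf3c5, and the highest fold left to Gfi1b is 7.12, if only the most 5′ TSS of each gene is used. The gene lies at chr2:28464970-28477502 on the minus strand, spans 12.53 kb and has 3 annotated TSSs. The Gfi1b +13.0 kb peak (chr2:28457540-28458308, 769 bp wide) lay in intergenic sequence beyond the 3′ end of the gene. It had a fold of 92.3 over local background (85.2 to 99.8), from 623 ChIP fragments on a background of 5.76, and ranked 267 by fold among all peaks. The fold, as MACS2 gives it, adds 1 to both the fragments and the background before they are divided, so it is lower than their plain ratio. Of the 6471 genes with a peak, 3.91% had a strongest peak at least as high. The other Gfi1b peak, at -1.7 kb (chr2:28472524-28472771), was in intron 1 of Gfi1b. Its fold was 7.12 (4.78 to 10.2) from 27 fragments, the lowest of the 15 and a rank of 10793. The intervals of the 2 peaks were far apart, so the downstream peak was the higher by more than the counting error of the ChIP fragments.

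A pair of further peaks stood beside Gfi1b +13.0 kb and was left out by the rule because the TSS of Gtf3c5, which encodes a subunit of the transcription factor TFIIIC, was slightly closer. The Gfi1b +17.1 kb peak (chr2:28453147-28454002) had a fold of 83.5 (75.5 to 92.3) from 389 fragments and ranked 339. Its interval overlapped that of Gfi1b +13.0 kb. The Gfi1b +16.0 kb peak (chr2:28454819-28455843), 1025 bp wide, had a fold of 13.5 (10.2 to 17.5) from 53 fragments. Gtf3c5 was nearer than Gfi1b by 2582 bp for the former and by 316 bp for the latter, whereas Gfi1b was nearer by 5578 bp for the credited peak. The 3 summits fell within 4.08 kb, and 4.91% of all chains of peaks, in which each summit lies within the stitching distance usual for super-enhancers of the next, had as many members. Counting every peak within a set distance of a TSS, Gfi1b had 1 within 10 kb, 4 within 25 kb, 4 within 50 kb and 6 within 100 kb, numbers reached by 16.5%, 1.44%, 4.28% and 3.93% of protein-coding genes.

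Gfi1 had no peak by the rule, and the reason lies in the annotation. GENCODE vM1 types Gfi1 (chr5:108145674-108155056, minus strand) as a processed transcript, so its TSSs were not among those compared. Upstream of it were 3 peaks within 50 kb, a number reached by 9.13% of protein-coding genes. The number within 100 kb was also 3, reached by 22.0%. All 3 were credited to Evi5, the neighbouring gene. The strongest, Gfi1 -33.3 kb (chr5:108188035-108188561), was in intron 19 of Evi5 and had a fold of 49.8 (45.4 to 54.5) from 466 fragments, where the background was 8.38. This summit was closer to the TSS of Gfi1 than to that of Evi5 by 6907 bp. The Gfi1 -10.4 kb peak, between the genes, had a fold of 7.52 (5.47 to 10.1), and Gfi1 -46.2 kb, in intron 18 of Evi5, a fold of 7.42 (5.65 to 9.58). The former was closer to Gfi1 and the latter to Evi5. With Gfi1 added to the protein-coding genes, it gained 2 peaks and 4 of the 7 genes were bound. With all lincRNA and processed-transcript genes added as well, these 2 peaks went to A430072P03Rik, a lincRNA whose TSS lies 362 bp upstream of that of Gfi1.

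**Figure D1:**
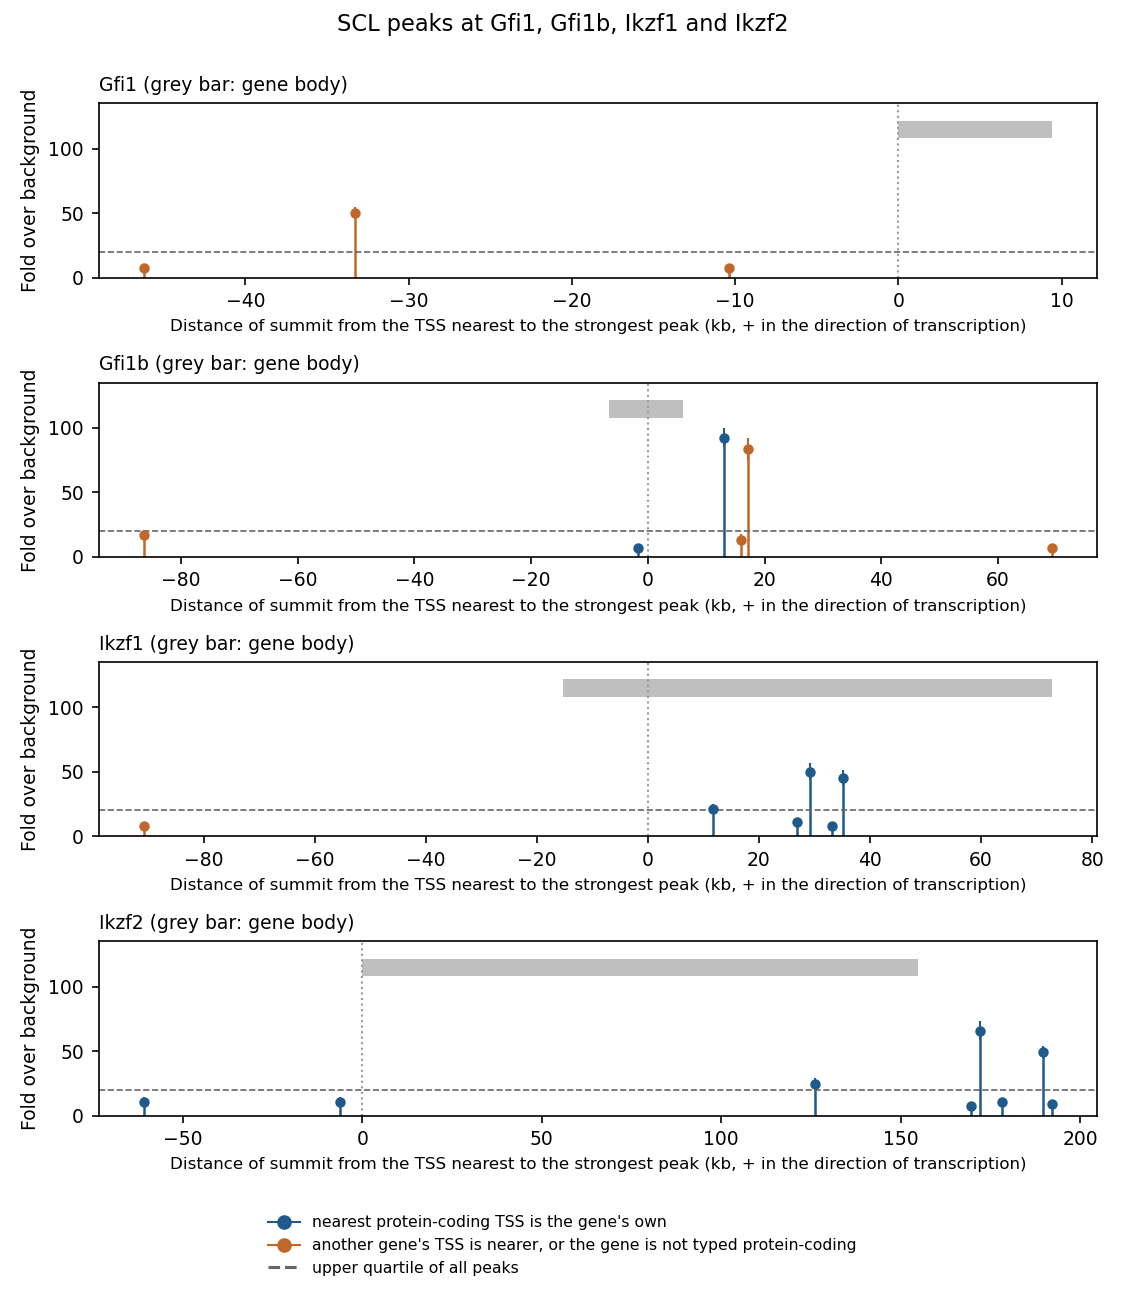
SCL peaks around Gfi1, Gfi1b, Ikzf1 and Ikzf2, as the fold over local background of each peak (y axis) against the distance of its summit in kb from the TSS nearest to the gene's strongest peak (x axis, plus in the direction of transcription). Blue peaks were credited to the gene and orange ones were not, vertical bars are 95% counting intervals, grey bars are gene bodies and the dashed line is the upper quartile of all peaks, 20.1. The peaks above the dashed line lay downstream of Gfi1b, inside Ikzf1, inside Ikzf2 and beyond its 3′ end, and upstream of Gfi1.

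All 5 Ikzf1 peaks lay inside the gene. Ikzf1 is at chr11:11585006-11672929 on the plus strand, spans 87.9 kb and has 8 annotated TSSs, and each of the 5 summits was in intron 3 of an 8-exon transcript. From 5′ to 3′, the fold was 20.8 at +11.7 kb, 10.7 at +26.9 kb, 49.9 at +29.2 kb, 8.28 at +33.1 kb and 45.1 at +35.1 kb, from 129, 60, 232, 42 and 233 fragments. The first, Ikzf1 +11.7 kb (chr11:11611747-11612109), had an interval of 17.4 to 24.7, which includes the upper quartile of all peaks, 20.1. The last 4 formed a chain of 8.24 kb in which low and high peaks alternated, with gaps of 2293, 3952 and 1996 bp between summits. A chain of 4 or more was found for 1.48% of all chains. The strongest peak, Ikzf1 +29.2 kb (chr11:11629212-11629592), had an interval of 43.7 to 56.7, and that of Ikzf1 +35.1 kb (chr11:11635070-11635591) was 39.5 to 51.2. These overlapped, so the order of the pair is not resolved at this depth. Having 5 peaks or more was seen for 2.10% of protein-coding genes, and having as many as its 6 within 100 kb of a TSS for 3.93%. One more peak within 100 kb of a TSS, Ikzf1 -75.5 kb, was in an intron of 4930512M02Rik, whose TSS was nearer, with a fold of 7.57 (5.0 to 11.0).

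By the rule Ikzf2 had the most peaks, and most lay far from its start. Where distance from the gene or its TSS was limited, Ikzf2 had 2 peaks and Ikzf1 had 5 or 6. At a -log10 q of at least 50 both had 3. The gene (chr1:69577788-69732534, minus strand) spans 154.7 kb with 1 annotated TSS, and the next protein-coding TSS met from any of the 8 peaks was that of Spag16. A total of 5 peaks lay beyond the 3′ end of Ikzf2, between 169.6 and 192.1 kb from its TSS, in a chain of 22.5 kb. Chains with 5 or more peaks made up 0.584% of all chains. From the gene's end outwards, the fold was 7.21 at +169.6 kb, 65.5 at +172.2 kb, 10.2 at +178.2 kb, 49.6 at +189.8 kb and 9.19 at +192.1 kb, so high and low peaks alternated here too. How often chains at other genes alternate in this way was not counted. Ikzf2 +172.2 kb (chr1:69560008-69560807), at 800 bp the widest of the 15, had 319 fragments and an interval of 58.5 to 73.0. Ikzf2 +189.8 kb (chr1:69542610-69543017) had more fragments, 516, but on a background of 9.43, the highest of the 15, and an interval of 45.4 to 54.0. By fold the former led with intervals that did not overlap, whereas by -log10 p (477.3 against 680.3) and by fragments the latter did. These intervals leave out the error of the backgrounds.

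The other 3 Ikzf2 peaks were scattered. Ikzf2 +126.1 kb (chr1:69606273-69606666), in intron 5 of the gene, had a fold of 24.5 (20.6 to 28.9) from 139 fragments. Upstream of the gene, Ikzf2 -6.2 kb had a fold of 10.7 (7.66 to 14.6) from 38 fragments and Ikzf2 -60.8 kb a fold of 10.6 (7.75 to 14.2) from 43. With 8 peaks Ikzf2 ranked 74 among protein-coding genes, and 0.527% had as many. That standing came from the distant peaks, since it had 2 peaks within 100 kb of its TSS, a number reached by 38.0% of genes, and 1 within 50 kb, reached by 44.3%. The stretch of the genome in which Ikzf2 has the nearest TSS was 359.5 kb long, against a median of 45.5 kb over genes, and the part of this length in the count was not tested.

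Ikzf3, Ikzf4 and Ikzf5 had no peak by the rule. Each had 1 or 2 peaks within 100 kb of a TSS, where the median gene had 1, and another gene's TSS was closer to all of them. Near Ikzf3 (chr11:98326216-98407345), the -34.7 kb peak had a fold of 11.7 (9.19 to 14.7) and the -36.8 kb peak, in intron 3 of Ormdl3, a fold of 6.82 (4.73 to 9.55), and the TSS of Ormdl3 was the nearest to both. Near Ikzf4 (chr10:128067899-128083047), the +16.0 kb peak had a fold of 3.98 (2.99 to 5.21) on a background of 12.1 and lay 1244 bp from a TSS of the ribosomal protein gene Rps26. Near Ikzf5 (chr7:138532166-138554035), the -14.6 kb peak (chr7:138568508-138568924) was strong, with a fold of 44.5 (37.9 to 51.9) from 160 fragments. It lay 690 bp from a TSS of Acadsb, an acyl-CoA dehydrogenase gene, in intron 2 of Acadsb and also in an intron of the neighbouring Fgfr2.

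**Figure D2:**
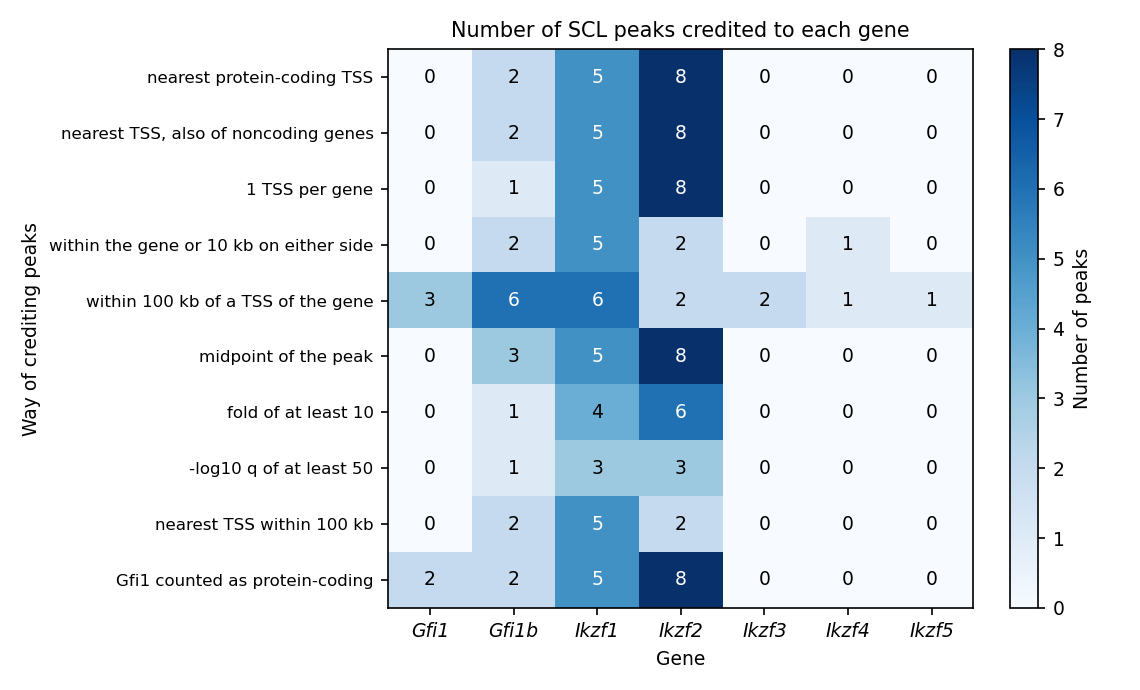
Number of SCL peaks credited to each of the 7 genes (columns) under the rule used here (top row) and under each other way of crediting or filtering peaks (rows below). Ikzf1 kept 3 to 6 peaks in every row, Ikzf2 fell from 8 to 2 where distance from the gene or its TSS was limited, and Gfi1 had 0, 2 or 3 peaks.

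The folds of the 15 peaks ran from 7.12 to 92.3. Of all peaks, 25% had a fold in the upper quartile (20.1 or more), and of these 15 peaks 7 did. The 7 were Gfi1b +13.0 kb, the Ikzf1 peaks at +11.7, +29.2 and +35.1 kb and the Ikzf2 peaks at +126.1, +172.2 and +189.8 kb. The other 8 ran from 7.12 to 10.7, below the median of all peaks, 11.1, and none of the 15 lay between that median and the upper quartile, where 3218 of all 12885 peaks did. The counting intervals of several peaks reached into this range, up to 14.6 for Ikzf2 -6.2 kb from below and down to 17.4 for Ikzf1 +11.7 kb from above, so the gap is not resolved by counting error. The median fold was 10.7 (95% confidence interval of the median 9.19 to 49.6), against 11.1 over all peaks. This wide interval includes the median of the list, but it treats the 15 peaks, which lie at 3 genes, as independent. A difference between the medians was not tested. In the order of fold, Gfi1b +13.0 kb and Ikzf2 +172.2 kb were each separated from the next peak by their intervals, which leave out the error of the background. The following 3, Ikzf1 +29.2 kb, Ikzf2 +189.8 kb and Ikzf1 +35.1 kb, could not be ordered among themselves, and neither could the 8 low peaks. Background was 2.64 to 9.43 fragments under the 15, with a median of 4.19 against 3.67 over all peaks. Its part in the folds was not tested.

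**Figure D3:**
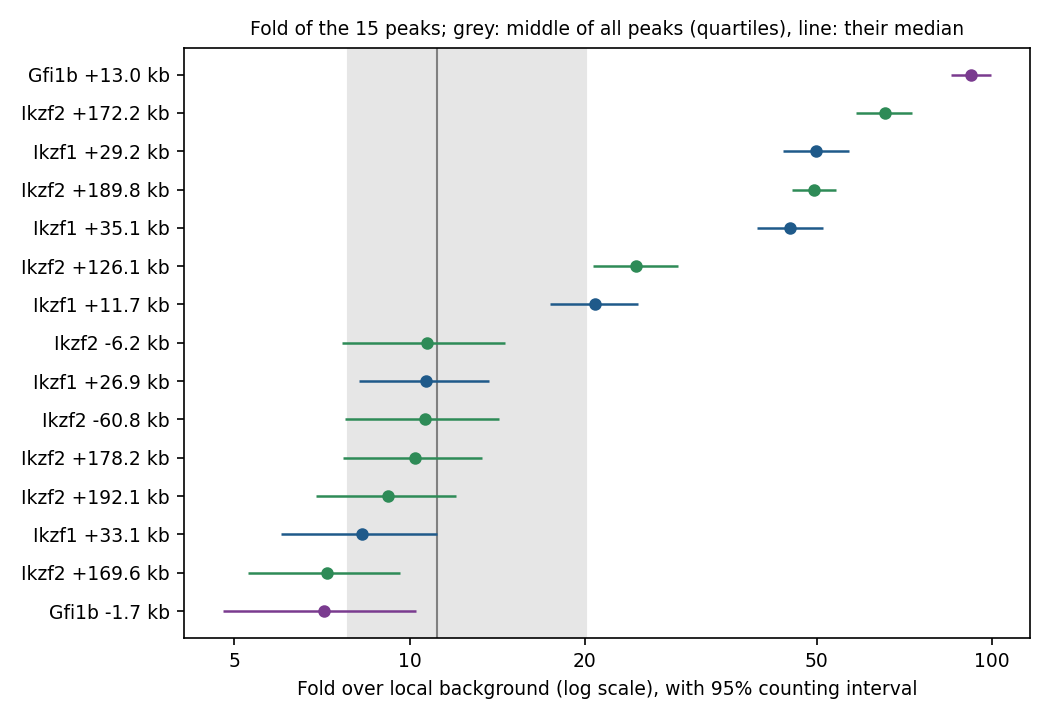
Fold over local background (x axis, log scale) of each of the 15 peaks, with 95% counting intervals as horizontal bars and a colour for each gene. The grey band runs from the lower to the upper quartile of all peaks, 7.84 to 20.1, with a line at their median; 7 peaks lay above the band and none between the line and the band's upper edge.

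None of the 15 summits was at a promoter. Within 1 kb of a protein-coding TSS there were 7.59% of all peaks and 0 of these 15, of which the closest was Gfi1b -1.7 kb. More than 100 kb from a TSS there were 18.5% of all peaks and 6 of the 15, all of them Ikzf2 peaks and so sharing 1 gene. In all, 7 summits lay in introns of the gene they were credited to, as did 37.3% of all peaks, and 8 between genes, as did 51.1%. The peaks were as wide as others, with a median of 408 bp (322 to 529) against 397 bp.

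Close to the summit, a GATA motif was the feature most of the 15 shared. Within 50 bp of the summit, 14 of the 15 held one (93.3%, 95% Wilson interval 70.2 to 98.8%), where 73.2% of all peaks and 17.8% of windows 1 kb away did. The exception was Gfi1b -1.7 kb, the weakest peak. Within 100 bp and over whole peaks the share of the 15 was again 93.3%, but that of all peaks rose to 84.6% and 89.4%. An E-box was found in 7 of the 15, against 52.6% of all peaks and 42.4% of the distant windows, and its CAGCTG form in 2, against 14.1% of all peaks. The E-box of Gfi1b +13.0 kb stood apart from a pair of GATA motifs that face each other with 2 bp between them, as the capitals of its sequence show. In Ikzf1 +29.2 kb, Ikzf1 +35.1 kb, Ikzf2 +172.2 kb and Ikzf2 +189.8 kb, all among the 5 strongest, no E-box was within the window. This depended on the window, since within 100 bp of the summit 80.0% of the 15 and 73.6% of all peaks held an E-box, and over whole peaks 100% and 90.1% did. ETS (AGGAA) and RUNX (TGTGGT or TGCGGT) motifs were held by 5 and 2 of the 15, against 51.9% and 10.7% of all peaks. Over whole peaks ETS motifs were in 93.3% of the 15 and 89.3% of all peaks, RUNX motifs in 40.0% and 36.1%, and CAGCTG in 46.7% and 34.5%. Within the 50 bp, for each of these motifs the interval of the 15 peaks included the share of all peaks. All were searched on both strands with overlaps allowed, and a match is a description of the sequence only.

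The composite motif of a partial E-box and GATA, that is CTG followed after 7 to 9 bases by GATA, was present in 32.9% of all peaks and 3.07% of windows 1 kb away, and in 3 of the 15 (Wilson interval 7.05 to 45.2%). These were Ikzf1 +26.9 kb with a spacing of 7 bases, Ikzf2 +172.2 kb with 8 and Ikzf2 +126.1 kb with 9. The strongest peaks of Gfi1b and Ikzf1 did not hold it. It was found, though, in both peaks beside Gfi1b +13.0 kb that the rule left to Gtf3c5, with a spacing of 8 bases at Gfi1b +16.0 kb, where the CTG is part of CAACTG, and of 9 at Gfi1b +17.1 kb, where it is part of CAGCTG. A spacing of 10 bases occurred in 4 of the 15, Ikzf1 +26.9 kb, Ikzf1 +29.2 kb, Ikzf2 +192.1 kb and Ikzf2 +189.8 kb, the last of which held 2 copies. It was in 6.46% of all peaks and 0.993% of the distant windows, and was looked for after these sequences had been seen. Over all spacings from 7 to 10 bases, 6 of the 15 (40.0%) and 38.1% of all peaks had a pair.

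**Figure D4:**
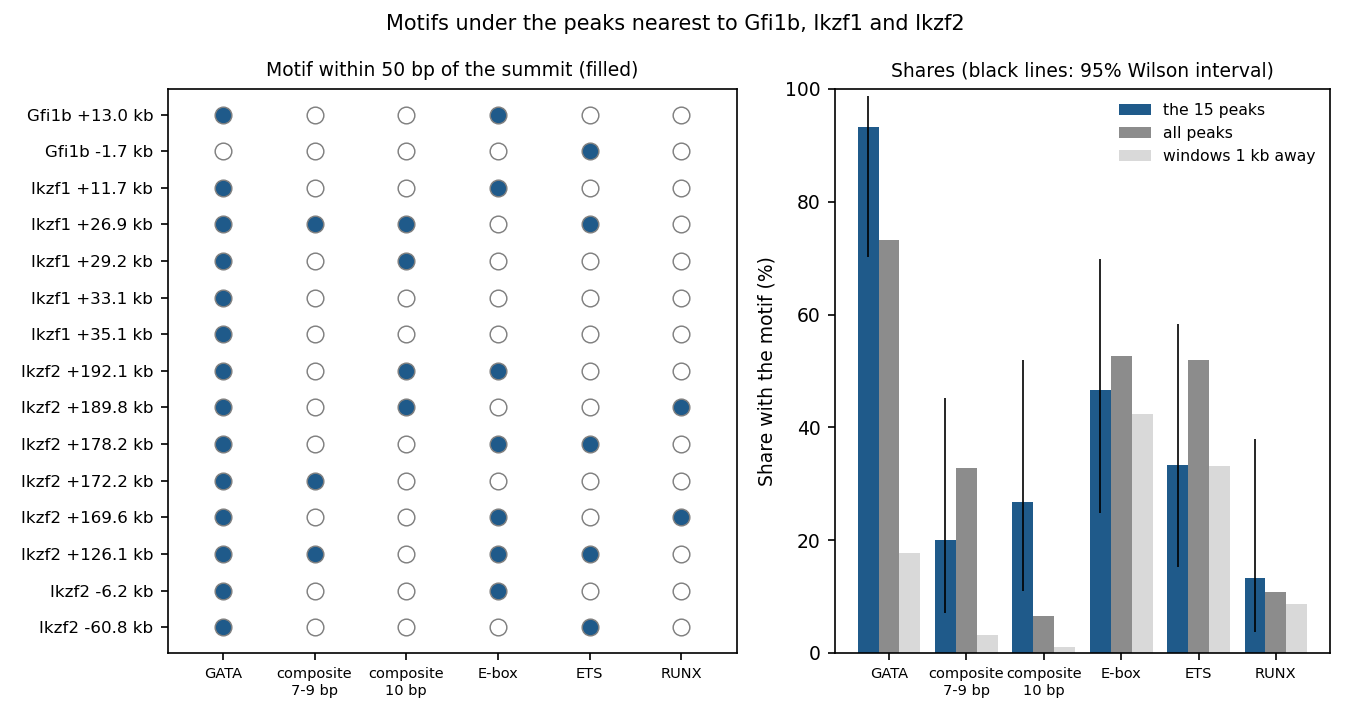
Motifs within 50 bp of the summit, where the composite is CTG and GATA at the spacing given. Left, each of the 15 peaks (rows) and each motif (columns), filled where the motif was found; right, the share in percent (y axis) of the 15 peaks, of all peaks and of windows 1 kb away that held it, with 95% Wilson intervals for the 15. The GATA column is filled for all peaks but Gfi1b -1.7 kb, and the intervals are wide because there were 15 peaks.

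The genes of the corepressors that these proteins recruit were counted next, against the 28.9% of all protein-coding genes with a peak. Of 8 genes for the LSD1-CoREST complex, the partner of GFI1 and GFI1B, 3 had a peak (37.5%). They were Phf21a, which encodes a histone-reading subunit, with 4 peaks and a highest fold of 163.6, the scaffold gene Rcor1 with 1 peak of 18.9, and the deacetylase gene Hdac1 with 1 of 7.27. No peak was credited to Kdm1a, which encodes LSD1 itself. Of 15 genes for the NuRD, SIN3 and CtBP partners of Ikaros, 6 had a peak (40.0%). Ctbp2 and the NuRD gene Gatad2a had 3 peaks each, with highest folds of 22.7 and 20.1, and Mta1, Mta3, Mbd2 and Sin3b had 1 each with folds of 8.01 to 10.3. The genes for the ATPases of NuRD, Chd3 and Chd4, had none.

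Other families of blood regulators had peaks in the following numbers, which were compared without a test. The 3 ETO family genes had 19 peaks, 13 at Cbfa2t3, 6 at Runx1t1 and none at Cbfa2t2. Their median fold was 12.7, with 36.8% in the upper quartile. Gata1, Gata2, Gata3 and the FOG genes Zfpm1 and Zfpm2 had 27, with a median of 18.1 and 48.1% in the upper quartile. The 4 Runx family genes, Cbfb included, had 18, of which 16 were at Runx1, 2 at Runx2 and none at Runx3 or Cbfb. Their median was 20.3, with 9 in the upper quartile. For the 15 peaks described here the median was 10.7 with 46.7% in the upper quartile. The highest fold was 330.7 in the ETO family, 298.0 in the Runx family and 142.7 among the GATA and FOG genes, all above the 92.3 of Gfi1b.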

How the data were processed

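Per the labels and the study's methods, the authors aligned reads to mm9 with Bowtie 1.1.2, called peaks on merged libraries with MACS2 2.0.10 and filtered them for reproducibility between replicates. The deposited list gives for each peak a fold enrichment (ratio of ChIP to local background at the summit, each with 1 added), the authors' -log10 p and -log10 q, and the summit position. It holds no value per library and no library depth. ChIP fragments and background at each summit were solved from fold and p, which fitted to within 0.001 in 99.9% of peaks and were checked on simulated peaks. Genes, TSSs (70064) and sequence came from GENCODE vM1 and NCBIM37, the build of mm9. No test was run, as there are no replicate values. Intervals are Poisson, Wilson or order-statistic (95%). The Wilson and order-statistic ones treat the 15 peaks as independent, although they lie at 3 genes. Python 3.11.15, NumPy 2.4.6, SciPy 1.17.1 and Matplotlib 3.10.9 were used. The 7 genes, the gene lists and the alternatives were chosen with earlier results of these data known. A peak was given in full if strongest for its gene, within 1 kb of its TSS or in the upper quartile of fold, and the others more briefly.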

Additional observations from a re-analysis of the deposited data

How the results depend on the processing

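Of 115 values recomputed under other settings, 29 moved, which for a count means by over 1.5 times, for the strongest peak of each gene any change, and for a median or share out of the first value's 95% interval. With 15 peaks these intervals are wide, so a value inside them can still differ much. The number of credited peaks, 15, became 7 at a -log10 q of at least 50 and 9 with a limit of 100 kb to the nearest TSS, the latter because 6 Ikzf2 peaks lie beyond it, and was 10 to 21 otherwise. Genes with a peak rose from 3 to 7 of 7 where any peak within 100 kb of a TSS counted, a setting under which 62.8% of protein-coding genes have one, and were 3 or 4 otherwise. The median fold was 10.7 to 15.8 under other ways of crediting peaks, 24.5 at a fold of at least 10 and 49.6, the upper bound of its interval, at a -log10 q of at least 50, filters that keep stronger peaks. Joining summits within 50 kb gave 5 chains in place of 8. Partner corepressor genes with a peak fell from 9 to 5 of 23 at a fold of at least 10, where 19.8% of protein-coding genes had one. The strongest peak was the same in 2 of 3 genes by -log10 p and in 1 of 3 by fragments, where Ikzf1 +35.1 kb (233) passed Ikzf1 +29.2 kb (232). With 1 TSS per gene, Gfi1b +13.0 kb went to Gtf3c5 and Gfi1b kept 1 peak. The composite was in 13.3% of the 15 within 25 bp and 40.0% in whole peaks (19.0% and 47.5% of all peaks). ETS motifs were in 13.3% of the 15 within 25 bp and 60.0% within 100 bp (30.7% and 74.8% of all peaks). Counting Gfi1 as protein-coding and the 10-base spacing were chosen after seeing the data. No paired analysis was possible because single libraries have no values in the merged list, and for the same reason no replicate could be left out.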
